A study of Mus musculus with 2 samples.

Results

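The regions described here are the shared regions of sparsely occupied megabases, taken from ChIP-seq (chromatin immunoprecipitation followed by sequencing) of mouse corneal epithelium. A shared region is the merged stretch where a called region of replicate 1 overlapped a called region of replicate 2 by at least 1 bp. Chromosomes 1 to 19 (mm9) were divided into bins of 1 Mb from position 0, each shared region was placed by its midpoint, and a bin with 1 to 3 shared regions was called sparse. This rule kept 1140 shared regions in 518 bins, of 19959 shared regions on chromosomes 1 to 19 and 20574 in the whole data set. These 1140 are called the members, and the shared regions of bins with 4 or more are set beside them. The members were chosen by where the regions lay, so their low number per megabase, their wide spacing and their chromosomes are descriptions and not findings.

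The study used 1 group of 2 replicate immunoprecipitates from the corneal epithelium of K14 DN-Clim mice at postnatal day 7. K14 DN-Clim is a transgene in which the keratin 14 promoter, active in basal epithelial cells, drives a dominant-negative form of the cofactor Clim with a Myc tag, and the antibody was directed against that tag. Both replicates carry the transgene, and wild-type, input and untagged libraries were not analysed here, which leaves no background level to set beside the counts. The labels do not tell if separate animals gave the replicates, so the spread between them may be technical.

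Clim proteins, also called Ldb or Nli, are nuclear cofactors without a DNA-binding domain of their own. They reach DNA through LIM-domain proteins, among them LIM-homeodomain transcription factors and LMO proteins in complexes with GATA and E-box binding factors. Clim proteins also pair with each other, by which they can bring a distant enhancer and a promoter together. Whether the tagged dominant-negative form can do so was not tested here. Stretches of the mammalian genome with few protein-coding genes, known as gene deserts, can hold enhancers that act over long distances, and they also include stretches with little known regulatory sequence. Which genes lie in or near the sparse bins was not analysed here, because the gene table used has another genome build than the lists, and for the same reason no DNA sequence of these regions is shown.

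Replicate 1 held 25592 called regions and replicate 2 held 42619. The names of the regions were numbered without a gap in each list, from 1 to 25592 and from 1 to 42619, so a stretch without regions is not a stretch with missing numbers. The read depth behind the lists is unknown. The intervals given are exact 95% intervals over regions or bins and cover counting error only.

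Between the first and the last called region of the autosomes there were 2425 bins, with a median of 7 shared regions. Of these, 518 (21.4%) were sparse, 62 (2.56%) held no shared region and 1845 held 4 or more. The members were spread over 114 bins with a single shared region, 186 bins with 2 and 218 bins with 3. On either side of the limit, 654 members lay in bins with 3, with medians of 128 bp in merged width and of 168 and 102 in replicate 1 and 2 score, and 792 shared regions lay in bins with 4, with 128 bp and scores of 169 and 96.7. The limit therefore cut through a continuous distribution, in which 3 was the most frequent count. The score is the authors' own value for each region, and what it measures is not stated.

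**Figure D1:**
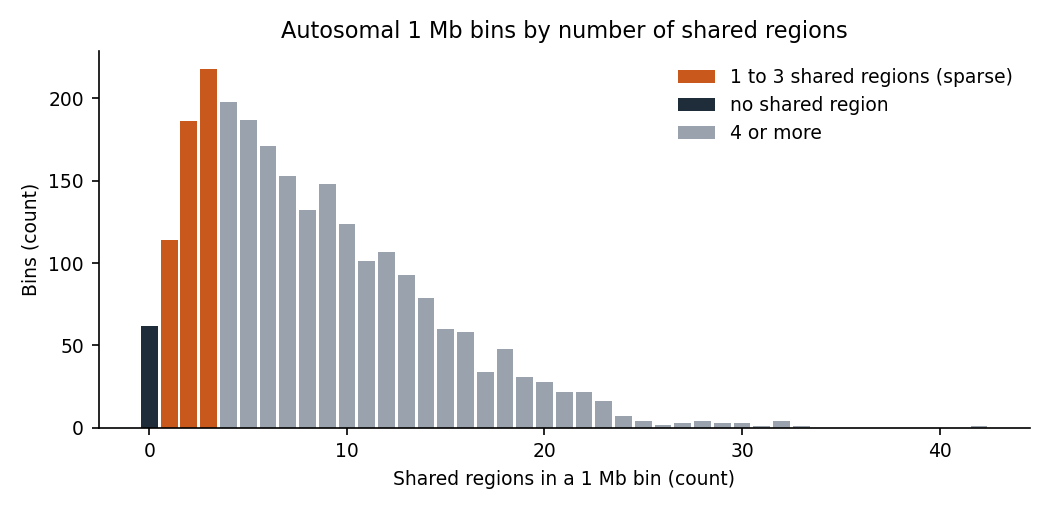
Number of autosomal 1 Mb bins (y axis) by the number of shared regions they hold (x axis), with sparse bins in orange, bins without a shared region in black and bins with 4 or more in grey. The 518 sparse bins join the rest without a break, with 218 bins at 3 and 198 bins at 4.

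Sparse or empty bins were more frequent beside sparse bins than beside bins with 4 or more. Of the bins that adjoined a sparse bin, 39.9% were themselves sparse or empty, against 18.1% of those that adjoined a bin with 4 or more and 23.9% of all bins. The median count in an adjoining bin was 4 shared regions beside sparse bins and 8 beside bins with 4 or more. Neighbouring counts were not used to choose a bin. Adjoining bins share a chromosome and each is counted from both sides, so no test of this difference was run. The share was higher beside sparse bins also with a stricter overlap, with the upper 50% of each list by score, with bins moved by 500 kb, with either list alone and without the bins at chromosome ends.

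Joined end to end, the sparse and empty bins formed 340 stretches, of which 203 were a single bin and 26 were at least 4 bins long. Of the 518 sparse bins, 325 (62.7%) stood in a stretch of 2 or more, and 43 adjoined an empty bin. Of the 1845 bins with 4 or more, 580 (31.4%) adjoined a sparse or empty bin. How many of these adjoined an empty bin was not counted. The longest stretch ran over 9 Mb of chromosome 7, from 39000001 to 48000000, and held 8 shared regions, 2 regions found in replicate 1 only and 7 found in replicate 2 only. All of its shared regions lay at its edges, since 6 of its 9 bins were empty. The next was a stretch of 7 Mb on chromosome 8 from 56000001 to 63000000, with 14 shared regions, 5 replicate 1-only regions and 44 replicate 2-only regions. Of 3 stretches of 6 Mb, that of chromosome 1 (100000001 to 106000000) held 13 shared regions and that of chromosome 3 (11000001 to 17000000) held 12. The third, on chromosome 14 (89000001 to 95000000), held 7 shared regions beside 69 replicate 2-only regions and 1 replicate 1-only region. Few shared regions therefore did not go with few called regions in every stretch.

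By chromosome, sparse and empty bins together made up 35.0% of chromosome 14, 34.0% of chromosome 7 and 32.8% of chromosome 12, the 3 highest shares. The lowest shares were 12.6% on chromosome 11, 13.9% on chromosome 9 and 17.0% on chromosome 18. Chromosome 14 reached its share with 37 sparse and 6 empty bins of 123, and chromosome 7 with 35 sparse and 16 empty bins of 150. Chromosome 7 held the most empty bins of any autosome, while chromosomes 9 and 19 had none after their first region. Chromosome 3 had the most sparse bins, 48 of 157, and the most members, 111, which were 10.6% of its shared regions. On chromosome 11 the 32 members were 2.51% of the shared regions.

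**Figure D2:**
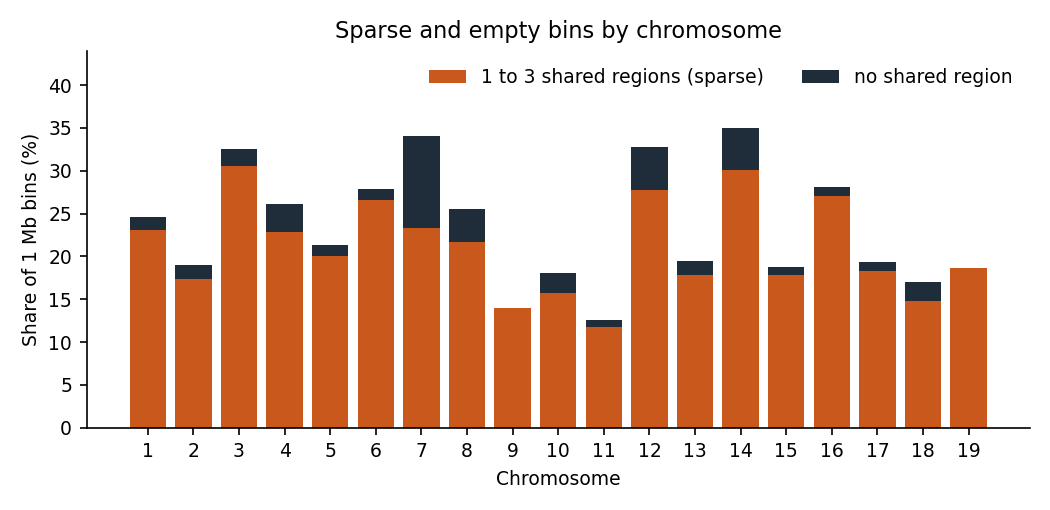
Share of each autosome's 1 Mb bins, in percent, that were sparse (orange) or held no shared region (black), counted from the bin of the first called region to that of the last. Chromosome 14 reaches 35.0% and chromosome 11 stays at 12.6%, and the black part is tallest on chromosome 7, at 10.7%.

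The share of sparse and empty bins was set beside the protein-coding genes per Mb of each chromosome, from the gene names of RefSeq's GRCm38 table, whose positions were not used. Over the 19 autosomes, Pearson's r was -0.32 and Spearman's rho was -0.34. Without chromosomes 7 and 11, the chromosomes with the most extreme gene density, r was -0.52 and rho was -0.46. These values describe whole chromosomes that share the same 2 libraries. Chromosomes 7 and 11 had nearly the same gene density, 13.6 and 13.5 genes per Mb, with 34.0% and 12.6% sparse or empty bins. Of their bins, 16 were empty on chromosome 7 and 1 on chromosome 11. This is 1 pair of chromosomes, and whether gene density bears on the share of sparse bins was not tested.

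The empty bins were of more than 1 kind. Among the 62, 16 held no called region of either list, 31 held replicate 2 regions only, 1 held replicate 1 regions only and 14 held regions of both lists that did not overlap. Of the 16 bins without any region, 9 lay on chromosome 7 and 11 stood in a run of at least 2 empty bins. Of the 41 empty bins that stood alone, 5 were without any region. Conversely, 28 empty bins held at least 5 replicate 2 regions. The bin with most of them, on chromosome 14 from 111000001 to 112000000, held 19 replicate 2 regions and 1 replicate 1 region, none of them overlapping. On chromosome 8, the bin from 52000001 to 53000000 held 15 replicate 2 regions and none of replicate 1. These bins held replicate 2 regions without an overlapping replicate 1 region, whereas the 16 bins were bare in both lists.

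Of 49 runs of empty bins, 41 were a single bin, 6 were 2 Mb long, 1 was 3 Mb long and 1 was 6 Mb long. The longest lay on chromosome 7 from 40000001 to 46000000 and held no region of either list. Around it, the last shared region before ended at 39059008 and the next began at 46652293, a distance of 7593 kb, and no region of either list fell in that whole distance. The flanking shared regions scored 244 and 114 in replicates 1 and 2 before the gap and 207 and 155 after it. Both flanks were thus called in both replicates with scores above the member medians of 168 and 101.

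The run of 3 Mb lay on chromosome 8 from 20000001 to 23000000, held 2 replicate 2 regions and was followed by a bin with 15 shared regions. The 6 runs of 2 Mb were tied in length. The one on chromosome 1 from 49000001 to 51000000 held 24 replicate 2 regions and none of replicate 1. The run on chromosome 4 from 71000001 to 73000000 held 10 replicate 2 regions and none of replicate 1. A further run on chromosome 4, from 112000001 to 114000000, held 4 replicate 2 regions and none of replicate 1. Of the other tied runs, that of chromosome 5 (94000001 to 96000000) held 1 replicate 1 region and none of replicate 2. The run of chromosome 7 from 21000001 to 23000000 held no region of either list, and that of chromosome 12 (22000001 to 24000000) held 1 replicate 1 and 3 replicate 2 regions. Over the 8 runs of at least 2 Mb, replicate 1 thus had at most 1 region in a run, and replicate 2 had between 0 and 24. Over the autosomes, 19 stretches of at least 1 Mb were without a called region of either list, 4 of them on chromosome 7. After the stretch of 7593 kb, the longest were 3035 kb on chromosome 8 from 20020176 to 23055422 and 3009 kb on chromosome 7 from 20927786 to 23936371. Whether these stretches hold assembly gaps or repeated sequence was not tested.

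Regions called in 1 list only show how the sparse bins were occupied beyond the shared regions. Replicate 2-only regions were nearly as frequent in sparse bins as in bins with slightly more shared regions. Bins with 1, 2 and 3 shared regions held means of 6.40, 6.55 and 6.51 replicate 2-only regions, and bins with 4, 5, 6 to 10 and 11 or more held 6.93, 6.88, 8.22 and 12.3. Replicate 1-only regions averaged 0.614, 0.957 and 1.02 in bins with 1, 2 and 3, and 1.11, 1.24, 2.07 and 3.28 in the same 4 groups of fuller bins. Empty bins held means of 4.50 replicate 2-only and 0.290 replicate 1-only regions. A sparse bin, which by the rule has at most 3 shared regions, therefore held on average more replicate 2-only regions than shared ones. The same was true of bins with 4 and with 5 shared regions. It also held in bins with 6 to 10, with 5981 replicate 2-only and 5725 shared regions. Only in bins with 11 or more were shared regions the more frequent, with 11367 against 8972 replicate 2-only regions.

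**Figure D3:**
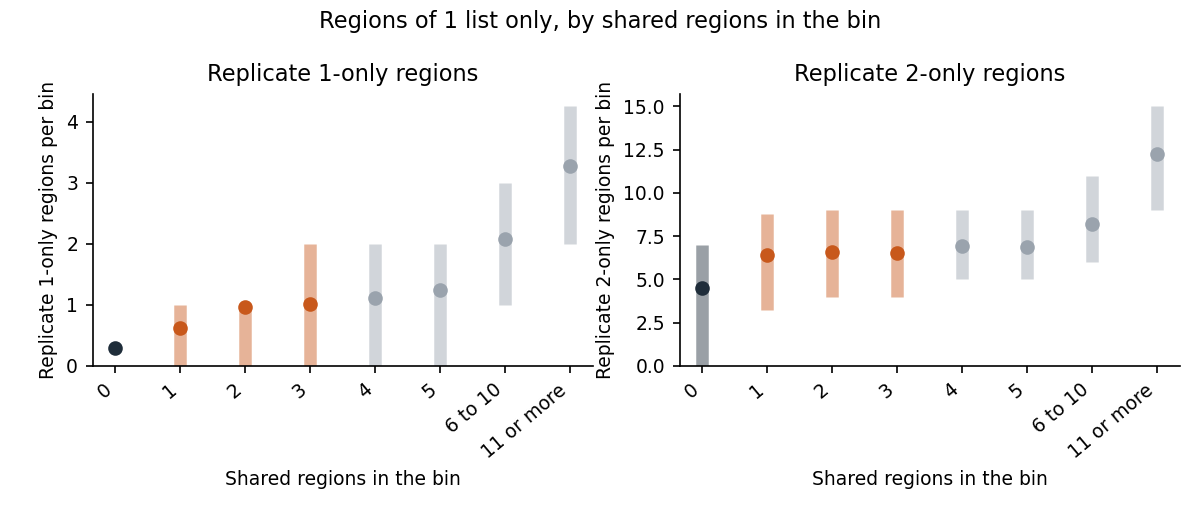
Regions called in replicate 1 only (left) and in replicate 2 only (right) per 1 Mb bin, by the number of shared regions in the bin on the x axis, with the mean as a point and the interquartile range over bins as a bar. Sparse bins (orange) average 6.40 to 6.55 replicate 2-only regions, against 12.3 in bins with 11 or more (grey) and 4.50 in bins with none (black).

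In sparse bins, 1144 of 4512 replicate 2 regions were shared, 25.4% (24.1 to 26.7%), against 18880 of 36491, 51.7% (51.2 to 52.3%), in bins with 4 or more. Over all autosomal replicate 2 regions the share was 48.5%. Of the replicate 1 regions in sparse bins, 1140 of 1610 were shared, 70.8% (68.5 to 73.0%), against 18826 of 23186, 81.2% (80.7 to 81.7%), in bins with 4 or more and 80.5% over all autosomal regions. The rule counts shared regions, so these shares follow from it in part and nothing is read from their distance to the background. In sparse bins, shared regions were the larger part of the replicate 1 regions and the smaller part of the replicate 2 regions. The same was true over all autosomal regions.

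The replicate 2-only regions of sparse bins were also lower in score and wider. Their median score was 63.9 (62.9 to 65.0), against 72.4 (71.8 to 72.8) in bins with 4 or more, and their median width was 127 bp (126 to 130), against 105 bp (104 to 107). Narrow regions, those below the width boundary of 100 bp in replicate 2, made up 35.7% (34.1 to 37.4%) of them, against 46.9% (46.2 to 47.7%). The narrow share went up with the occupancy of the bin, from 28.3% in empty bins over 32.2%, 33.7% and 39.3% in bins with 1, 2 and 3 to 49.4% in bins with 11 or more, with 1 step down between 3 and 4 (38.6%). The median score of replicate 1-only regions was 148 (142 to 155) in sparse bins, against 149 (146 to 151) in bins with 4 or more, and their narrow share was 58.9% (54.3 to 63.4%) against 59.0% (57.5 to 60.5%). The intervals were apart in replicate 2 and overlapped in replicate 1, and the difference between the lists was not tested. The lowest score was 50 in the whole replicate 2 list and 70.03 in the whole replicate 1 list, so the lists ended at different scores.

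One sparse bin stood apart from all others in replicate 1. The first occupied bin of chromosome 9, from 3000001 to 4000000, held 33 replicate 1 regions and 18 replicate 2 regions, of which 2 shared regions were members. Of its 31 replicate 1-only regions, 29 lay between 3000354 and 3038330, with scores of 79.2 to 724 and a median of 181. The next highest count in any sparse bin was 6. Without this bin, the mean of replicate 1-only regions per sparse bin was 0.849 in place of 0.907, and 72.2% of the replicate 1 regions of sparse bins were shared. The members of the bin scored very unequally between the lists. The first, from 3000001 to 3000286, scored 1488 in replicate 1 and 109 in replicate 2. The other, from 3035676 to 3036228, scored 793 in replicate 1 and 62.4 in replicate 2.

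The widths of the members differed little from those of other shared regions. The merged width had a median of 128 bp (123 to 133) with an interquartile range of 82 to 164 bp in sparse bins, against 132 bp (131 to 133) with a range of 85 to 170 bp in bins with 4 or more. The interval of the median for bins with 4 or more lay within that of the members. Before merging, the median was 82 bp (80 to 84) in replicate 1, against 84 bp (83 to 84), and 95 bp (88 to 101) in replicate 2, against 102 bp (101 to 104). The member median of merged width was the lower one in 12 of 19 chromosomes and the higher one in 7. With replicate 2 alone in place of shared regions, the median widths lay further apart, at 69 bp in sparse bins and 106 bp in the rest.

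Called regions were either narrow, in a sharp peak, or wide, in a broad one, with the boundary at 105 bp in replicate 1 and at 100 bp in replicate 2. Of the members, 435 (38.2%, 35.3 to 41.0%) were narrow in both replicates, against 6746 (35.8%, 35.2 to 36.5%) in bins with 4 or more and 36.0% of all autosomal shared regions. Wide in both were 252 members (22.1%, 19.7 to 24.6%), against 4430 (23.5%, 22.9 to 24.2%) and 23.5% overall. A further 297 members (26.1%, 23.5 to 28.7%) were narrow in replicate 1 and wide in replicate 2, against 5208 (27.7%, 27.0 to 28.3%) in bins with 4 or more. The reverse held for 156 members (13.7%, 11.7 to 15.8%), against 2435 (12.9%, 12.5 to 13.4%). Each of these 4 member shares lay near that of the other shared regions. Counted list by list, 64.2% of the members were narrow in replicate 1 (61.4 to 67.0%), against 63.5% (62.8 to 64.2%), and 51.8% were narrow in replicate 2 (48.9 to 54.8%), against 48.8% (48.1 to 49.5%).

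**Figure D4:**
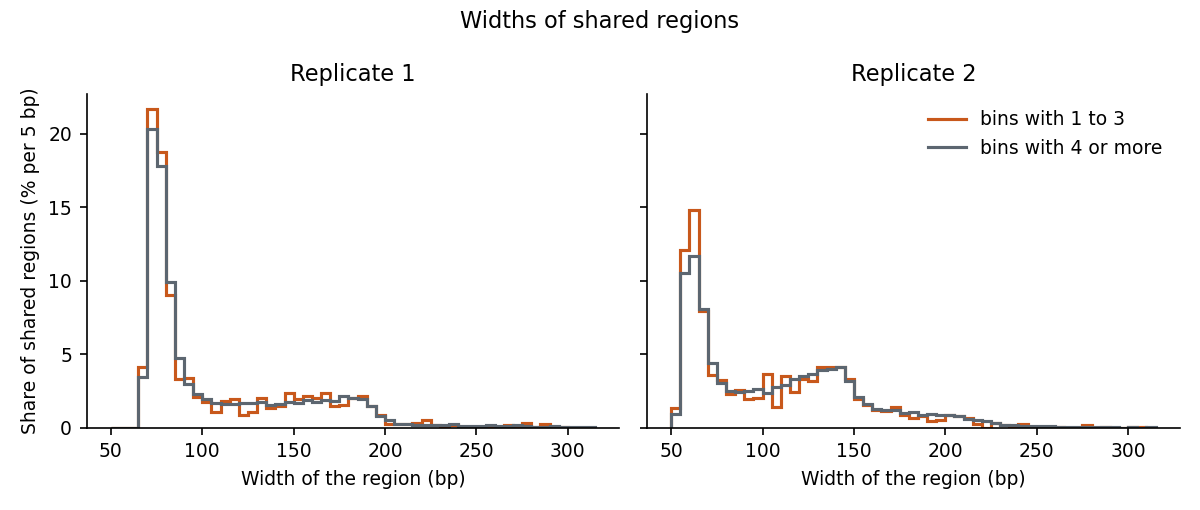
Width of the called regions that form shared regions, in bp, as the share of regions per 5 bp in replicate 1 (left) and replicate 2 (right), for members of sparse bins (orange) and for bins with 4 or more (grey); the widest regions lie beyond the axis. The curves of both groups have the same narrow and wide parts, and the narrow peak of replicate 2 is somewhat taller for the members, 51.8% of which were narrow there, against 48.8%.

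The median score of the members was higher than that of other shared regions in replicate 2 and slightly lower in replicate 1, where the intervals overlapped. In replicate 2 the median score was 101 (96.8 to 103) in sparse bins, against 94.8 (94.1 to 95.5) in bins with 4 or more, at percentiles 67.0 and 62.4 of the whole replicate 2 list. In replicate 1 it was 168 (162 to 173), against 173 (172 to 173), at percentiles 50.0 and 53.2 of the replicate 1 list. The mean of both percentiles had a median of 56.2 (54.4 to 57.9) in sparse bins, against 56.4 (56.0 to 56.9). Averaged over the replicates, the median place of the members in the score order was thus near that of other shared regions. The difference was not tested. The member median was higher in 13 of 19 chromosomes in replicate 2 and lower in 14 of 19 in replicate 1.

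**Figure D5:**
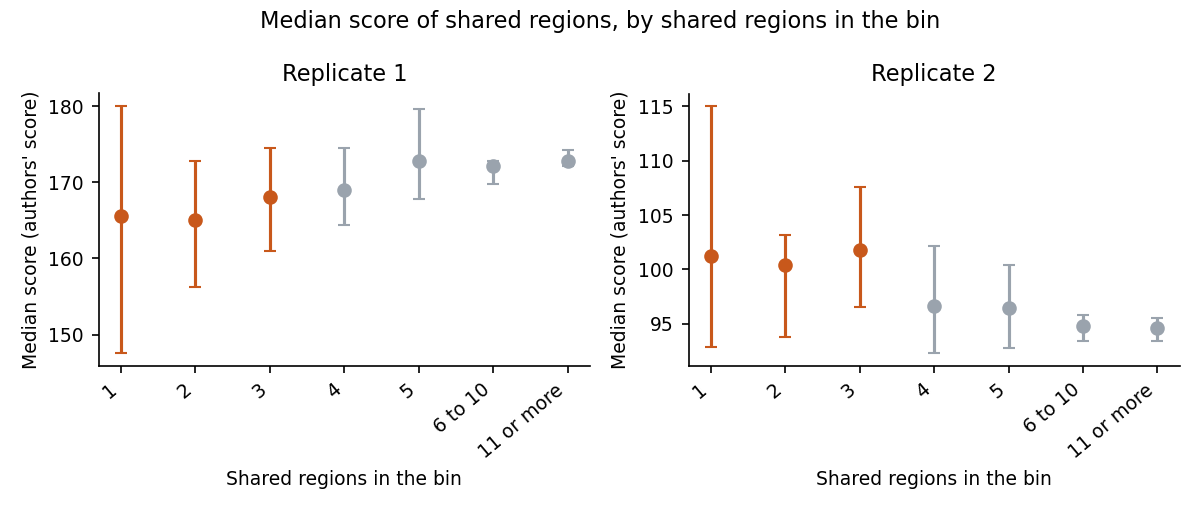
Median score of shared regions (the authors' score, y axes not from 0) by the number of shared regions in the bin, in replicate 1 (left) and replicate 2 (right), with bars for the exact 95% interval of the median and sparse bins in orange. In replicate 2 the sparse bins lie at 100 to 102 and bins with 11 or more at 94.6, while in replicate 1 the sparse bins lie at 165 to 168 and bins with 11 or more at 173.

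Since narrow regions score higher than wide ones, the scores were also compared within width classes. Among regions narrow in both replicates, the median replicate 2 score was 115 (111 to 120) in sparse bins, against 107 (105 to 109), and the median replicate 1 score was 188 (182 to 194), against 198 (195 to 198). In this class the intervals did not overlap in either list, and the directions were opposite. Among regions wide in both, the medians were 93.4 (87.4 to 103) against 93.0 (92.2 to 93.7) in replicate 2 and 115 (108 to 123) against 122 (120 to 124) in replicate 1, with overlapping intervals in both lists. Regions narrow in replicate 1 and wide in replicate 2 had nearly the same medians in both groups of bins, 80.8 (76.7 to 84.1) against 81.4 (79.9 to 83.1) in replicate 2 and 200.12 (189.91 to 209.52) against 199.98 (197.7 to 202.35) in replicate 1. In the reverse class the medians were 119 (105 to 130) against 104 (102 to 107) in replicate 2, with overlapping intervals, and 102 (94.5 to 106) against 110 (108 to 113) in replicate 1, with intervals apart. The score differences were therefore not common to all width classes. When each list was cut to its upper 50% by score, shared regions and sparse bins were formed anew, with 2355 members. In these groups the replicate 2 difference had the opposite direction, with medians of 122 in sparse bins and 124 in the rest. The replicate 1 difference kept its direction, with 230.0 and 233. The cut was made on the score compared, and the groups do not hold the same regions as before.

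The order of the scores agreed weakly between the replicates among the members as well. Spearman's rho over the 1140 members was 0.14, against 0.18 over the 18819 other shared regions, as a description across regions of the same libraries. For the 252 members wide in both it was 0.35, against 0.48, and for the 435 members narrow in both it was 0.11, against 0.077. The called regions of a member overlapped over a median of 70.2% of the merged width (67.1 to 72.3%), against 67.7% (67.1 to 68.4%). Both regions started at the same base in 104 of 1136 simple pairs (9.15%, 7.54 to 10.98%), against 1442 of 18752 (7.69%, 7.31 to 8.08%) and 7.77% of all autosomal pairs. These intervals overlapped, and whether the lists matched more closely in sparse bins was not tested.

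High-scoring regions occurred among the members about as often as members occurred overall. Of the 100 autosomal shared regions with the highest mean percentile, 5 were members (5%, 1.64 to 11.3%), and of the first 1000, 52 were (5.20%, 3.91 to 6.76%), against 5.71% of all autosomal shared regions. The first of the members was a region on chromosome 18 from 9780233 to 9780403, which scored 482 in replicate 1 and 359 in replicate 2. The second, on chromosome 12 from 10112709 to 10112877, scored 432 and 352 and was 514 kb away from the nearest shared region. The third, on chromosome 6 from 104317736 to 104317885, scored 421 and 507, the highest replicate 2 score of any member. A strong call in both lists was thus not limited to bins with many shared regions.

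Some others of the 10 highest-ranked members were far from the next shared region on 1 side or both. The chromosome 1 region from 85283448 to 85283566 scored 401 and 307 and was followed by 2195 kb without a shared region, which include an empty bin with no region of either list. On its left, the nearest shared region was 42.6 kb away. The region on chromosome 7 from 115826107 to 115826201 scored 419 and 401, with the nearest shared region on its left 1007 kb away and that on its right 55.3 kb away. On chromosome 2, the region from 46772674 to 46772801 was the only shared region of its bin, with scores of 364 and 324, and lay 487 kb from the nearest one. It shared its bin with 1 replicate 1-only and 8 replicate 2-only regions. Of the remaining 4, chromosome 12 held one at 42711176 to 42711279 and another at 117899243 to 117899412, chromosome 3 one at 15965295 to 15965378 and chromosome 16 one at 98301232 to 98301394. Their replicate 1 scores were between 352 and 455 and their replicate 2 scores between 174 and 260. Their nearest shared regions were between 21.8 and 123 kb away. Of the 10, 3 lay on chromosome 12. The median distance of a member to the nearest shared region was 173 kb. Among the 10, only the chromosome 2 region and the chromosome 12 region at 10112709 lay farther away than that.

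Isolation followed from the rule, and its extent is given as a description. The nearest other shared region lay at a median of 173 kb from a member, against 26.8 kb in bins with 4 or more, and 91 members (7.98%) were at least 500 kb away from it, against 23 regions (0.122%). The most isolated member lay on chromosome 3 from 43473781 to 43473937, with 1473 kb to its left and 1322 kb to its right and scores of 97.1 and 84.1 in replicates 1 and 2. It was followed by a chromosome 14 region from 90817818 to 90817898, 1299 kb from the nearest, which scored 148 and 88.5. A second chromosome 3 region, from 112971436 to 112971588, lay at 1224 kb and scored 113 and 137. The only chromosome 2 region among the 5, from 99607348 to 99607480, lay at 1100 kb and scored 110 and 106. The fifth, on chromosome 7 from 33939036 to 33939108, lay 965 kb from the nearest and scored 207 and 130.1. In replicate 1 the first 4 of these regions scored below the member median of 168, and in replicate 2 the last 3 scored above the median of 101. The bins of the first 3 held 8, 15 and 14 replicate 2-only regions, so these members were isolated from shared regions and not from called regions.

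A few members stood close together. A neighbour within 5 kb was found for 27 members (2.37%, 1.57 to 3.43%), against 2712 regions (14.4%, 13.9 to 14.9%) in bins with 4 or more and 13.7% of all autosomal shared regions, a difference that the rule itself favours. The closest pair lay on chromosome 6, where the region from 44375302 to 44375374 ended 109 bp before the next one. In bins with 2 members these spanned a median of 302 kb, and in 2 of the 186 bins they lay within 10 kb of each other. In bins with 3, the span had a median of 444 kb and was never below 31.1 kb. The members of a sparse bin were therefore mostly far apart from each other too.

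The widest members lay near chromosome ends in 2 of 3 cases. The widest, 888 bp on chromosome 13 from 120277059 to 120277946, was the last shared region of that chromosome, with widths of 377 bp in replicate 1 and 859 bp in replicate 2 and scores of 88.5 and 291. The second was the chromosome 9 region of 553 bp from 3035676 to 3036228 described above. The third, 391 bp on chromosome 1 from 22270953 to 22271343, scored 90.4 and 120.0 and had widths of 282 and 277 bp. On the last bin of a chromosome, which can be cut short, 18 members lay in 10 sparse bins, and on the first occupied bin 7 members lay in 3. Leaving out these bins left 1115 members with the same median width of 128 bp.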

How the data were processed

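ChIP-seq against the Myc tag was carried out on 2 replicates of 1 group. Per the labels' protocols, 24 µg of chromatin went into each immunoprecipitation, and the 50-cycle single-end reads of 2 lanes were combined after alignment. The protocols also give a digestion of 2 hours at 37 °C for both replicates. Bowtie 0.12.7, bedtools 2.11.2 and mm9 are named in the submitters' processing notes. Regions were called per replicate, and their names carry the prefix of the caller MACS. For the version and settings of that caller, and for any control, the sources used here hold no statement. Each region's score is deposited by the authors without a unit, and groups of bins were compared within a list. Mean percentiles and rank correlations set the lists side by side. Where regions of 1 list were merged, the highest score and the greatest width were used.

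Lists were merged and binned with numpy 2.4.6, pandas 2.3.3 and scipy 1.17.1 in Python 3.11.15, and figures were drawn with matplotlib 3.10.9. The code was tested on simulated data and against bedtools 2.31.1. Shares carry Clopper-Pearson 95% intervals and medians carry intervals from order statistics. Regions are not replicates and there is 1 group, so no test was run. The width boundary was the emptiest 5-bp bin between the narrow and wide populations. The 57 leading bins, 3 before the first region of each chromosome, were left out. The regions described and the lists were chosen with earlier results of these data known. Named were the 10 highest-ranked, 5 most isolated and 3 widest members, the 5 longest empty runs with ties taken in chromosome order (the tied runs beyond these were added later), and the 3 highest and 3 lowest chromosomes. Other items were picked by value. Planned values of gene content and sequence were left out for want of mm9 references here. Coordinates count from 1.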

Additional observations from a re-analysis of the deposited data

How the results depend on the processing

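Over 42 recalculations, 22 values stayed within 1.5 times the reported count or within the interval of the reported value, and 20 moved. With an overlap of at least 50% of each region, 98 bins were empty, the member width was 109 bp, the replicate 1 score 175, the narrow share 47.5% and the neighbour share 50.0%. With the upper 50% of each list by score there were 2355 members and 370 empty bins, the width was 99 bp, the scores were 230.0 and 122, the narrow share was 53.5% and the neighbour share 73.0%. These 2 settings use fewer regions, so more bins become sparse by construction. With sparse meaning 1 or 2, there were 486 members and the neighbour share was 27.1%. With either list alone in place of shared regions, members numbered 92 (without replicate 1) and 779 (without replicate 2). Empty bins numbered 17 and 47, and the neighbour share was 22.5 and 31.4%. Without replicate 1, the median width was 69 bp in sparse bins, against 106 bp in the rest. Without replicate 2, it was 81 bp, against 83 bp. The small difference in width between the groups was therefore not kept with replicate 2 alone. Replicate 2 alone has more regions per bin, so few bins were sparse. Bins moved by 500 kb, and the removal of the first and last bin of each chromosome, chosen after seeing the data, kept all values within these limits. The neighbour share was also added after the data were seen.

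No paired analysis was possible because there is 1 group. Gene content, sequence composition and the exclusion of bins with unknown bases were not run, because they need mm9 references. Depth is unknown, and absence from a list cannot be told apart from too few reads.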
